A study of Zea mays with 18 samples.

Results

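Leaves of the maize inbred line W22 were compared at 2 h of recovery from mild heat stress (R2h) with leaves taken before any heat (0 h). The comparison used the 3 W22 R2h libraries and the 3 W22 0 h libraries, that is, 6 of the 18 libraries of the series, and covered all 36321 genes of the deposited table. The question was which transcripts were still away from their unheated level, in either direction, when the heat had been off for 2 h. W22 is an inbred line that carried no introduced mutation here, and all plants came from pots in a growth chamber at 26 °C by day and 22 °C by night, with 16 h of light and 8 h of dark. The remaining libraries were W22 after 1 h of mild heat stress and the line labelled *nf-ya1*, which carries a transposon insertion in *ZmNF-YA1* (a subunit of the NF-Y transcription factor that binds CCAAT boxes) in the W22 background, at the same 3 times. They appear below only beside the W22 recovery values. By qRT-PCR, the study reports lower *ZmNF-YA1* transcript levels in this mutant than in the wild type, before and after heat. It also describes the mutant as having no such transcripts. In the libraries labelled *nf-ya1*, however, the gene was listed at 13.01, 12.6 and 21.15 FPKM at 0 h, against 23.12, 22.79 and 26.55 FPKM in W22. FPKM and qRT-PCR are unlike measures, and where the reads lay relative to the insertion could not be checked. The libraries labelled *nf-ya1* are therefore named by their label throughout.

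The sample titles give 1 h of heat and 2 h of recovery, whereas the protocol text of the same samples gives 6 h of heat and 2 d of recovery. The titles were followed. The study's methods give a longer heat for the time course it measured by qRT-PCR, and no length of heat before R2h for the sequenced libraries, so the R2h libraries need not follow the 1 h libraries. Recovery, the hour at which leaves were cut and any change of chamber cannot be told apart between R2h and 0 h. The methods state that replicates of the physiological measurements pooled leaf pieces of several plants, but the sources used here do not state this for the sequenced libraries, and p-values therefore measure only the spread between these libraries.

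Heat unfolds proteins, and plant cells answer by switching on chaperones. Small heat shock proteins (sHSPs) hold unfolded proteins in solution, DnaJ proteins and BAG proteins steer the HSP70 cycle, chaperonins of the Cpn60/TCP-1 family fold proteins inside a barrel, and HSP100 proteins of the ClpB type pull aggregates apart. When the heat ends, this program is shut down while the cell refolds or degrades damaged protein, removes peroxides and restarts growth and photosynthesis. Transcripts at R2h can therefore show which parts of the program have ended and which have not.

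The libraries of each group were alike. The values were FPKM, fragments per kilobase of transcript scaled to the mapped fragments of the library, and libraries summed to 877420 to 892546 FPKM at R2h and to 856046 to 913297 FPKM at 0 h, with 26508 to 26568 genes above 0 at R2h and 26177 to 26534 at 0 h. Sequencing depth per gene is unknown from FPKM, and precision therefore rests on the spread between libraries. The tests estimated that spread for each gene over all 18 libraries, not over the 6 W22 libraries alone. Across genes, Pearson's r of log2(FPKM + 1) was 0.9777 to 0.9903 between libraries of one group (6 pairs) and 0.9458 to 0.9549 between R2h and 0 h libraries (9 pairs). Replicate 3 at 0 h and replicate 1 at R2h stood somewhat apart from the others of their group. The 21 annotated light-harvesting proteins, which mark leaf tissue, summed to 50164.9 to 57027.6 FPKM at R2h and to 48008.8 to 53281.1 FPKM at 0 h, in keeping with leaf tissue in all 6 libraries.

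Of the 36321 genes, the 22572 that reached 1 FPKM in 3 or more of the 18 libraries were tested with limma on log2(FPKM + 1), a scale that understates the change of genes with low FPKM. Differentially expressed genes (DEGs) had a Benjamini-Hochberg adjusted p no higher than 0.01 together with a log2 fold change of 1 or more in either direction. At R2h, 893 DEGs were higher than at 0 h (3.96% of the tested genes) and 422 were lower (1.87%), 5.83% in all. Fewer cells of a type and less RNA per cell cannot be told apart in such leaf libraries. The DEGs were therefore a small part of the transcriptome, and 67.9% of them were higher at R2h. Over the tested genes the log2 fold change had a median of 0.13, and median-ratio scaling, which moved that median by 0.13, left 544 higher and 528 lower DEGs (50.7% higher). The excess of higher over lower DEGs thus changed with the scale chosen.

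In all 893 higher DEGs the lowest R2h library lay above the highest 0 h library, and in all 422 lower DEGs the highest R2h library lay below the lowest 0 h library. Over all tested genes the groups stood apart in this way in 36.1% (R2h above) and 14.6% (R2h below). A further 1261 genes passed the adjusted p upwards and 322 downwards without reaching the fold threshold. Large changes were few. Among the higher DEGs, 139 had a log2 fold change of at least 2 and 28 of at least 3, and among the lower DEGs 79 and 15 reached these sizes. The higher DEGs together held 5.48 to 6.51% of the FPKM of an R2h library and 1.43 to 1.61% of a 0 h library, and the lower DEGs held 1.35 to 1.46% of an R2h library and 4.17 to 4.28% of a 0 h library. DEGs were most frequent among abundant transcripts. They made up 9.98% of the genes with a mean above 100 FPKM, where 52 were higher and 56 lower, and 6.44% of those between 1 and 10 FPKM, where 490 were higher and 162 lower.

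**Figure D1:**
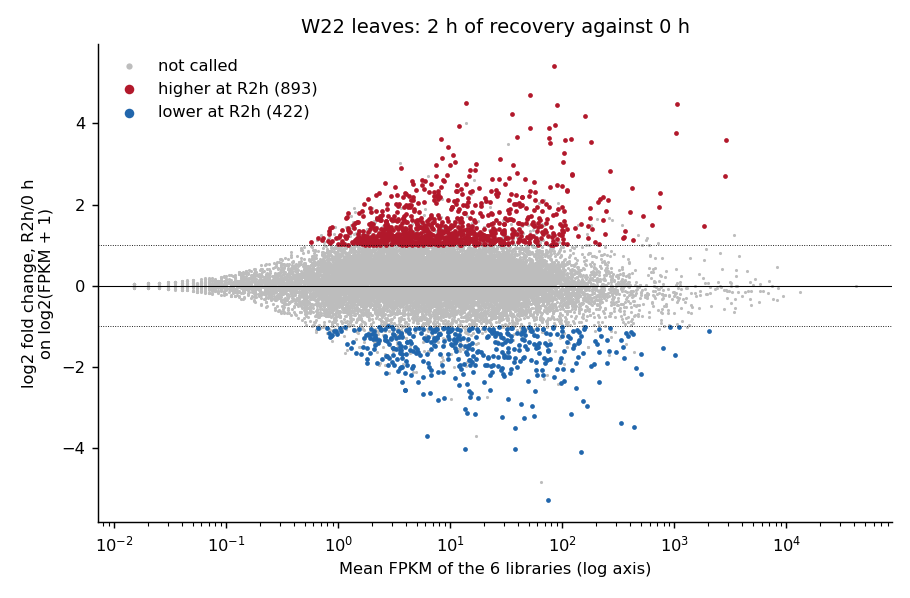
Log2 fold change of R2h over 0 h in W22 leaves (vertical axis, on log2(FPKM + 1)) against the mean FPKM of the 6 libraries (horizontal log axis), 1 point per tested gene with a mean above 0.01 FPKM, with dotted lines at the fold threshold. The 893 higher and 422 lower DEGs lie across the whole range of abundance above about 1 FPKM, and most tested genes lie near 0.

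The sHSPs include several of the largest rises at R2h. Names were available for 1773 tested genes, those listed with a protein domain in the part of the study's own DEG table that was supplied (domains sorted up to the letter C), and in this selected set 7.67% were higher and 4.17% lower DEGs, with a median log2 fold change of 0.09. Lists made from them are not independent evidence of direction, since the study chose them on these libraries. Of 41 tested genes with an alpha crystallin/Hsp20 domain, which marks sHSPs, 12 were higher DEGs at R2h (29.3%), 2 were lower DEGs and 27 were not called. The median of all 41 was 0.11, close to the 0.13 of all tested genes, and the family was divided. This median includes members near 0 FPKM in W22, whose log2 fold change on log2(FPKM + 1) lies near 0. At 1 h, a comparison that shares the W22 0 h libraries, 23 of the 41 were higher DEGs (background 5.79%) and 1 was a lower DEG (background 20.7%).

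Zm00001eb081770 had the largest rise of the sHSPs on log2(FPKM + 1). Its FPKM was 73.7, 114.22 and 113.62 at R2h, against 3.5, 3.87 and 1.63 at 0 h, a rise of 4.69 on the log2 scale (SE 0.33, adjusted p 1.79e-07). Its mean under heat, at 1 h, was 3092 ± 61.8 FPKM (SD, n = 3), so the R2h level, although far above the unheated one, was a small part of the level under heat. Zm00001eb010530 was the most abundant of the 12 higher sHSPs, with 1765.73, 2155.77 and 2163.47 FPKM at R2h, against 90.61, 93.77 and 85.5 FPKM at 0 h (log2 fold change 4.47, SE 0.37, adjusted p 9.76e-07). The 3 R2h libraries lay close together in this gene, and all were more than an order of magnitude above the 0 h libraries. Zm00001eb337690 behaved alike at a lower level, with 64.85, 68.81 and 70.34 FPKM at R2h, against 3.17, 3.65 and 1.53 FPKM at 0 h (log2 fold change 4.24, SE 0.25, adjusted p 4.07e-08).

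In other sHSPs R2h replicate 1 was well below the other R2h libraries. Zm00001eb335430 had 78.58, 240.32 and 204.84 FPKM at R2h, against 6.61, 6.14 and 6.02 FPKM at 0 h (log2 fold change 4.45, SE 0.51, adjusted p 2.15e-05). Zm00001eb124940 had 184.4, 371.99 and 355.29 FPKM at R2h, against 14.9, 17.08 and 13.66 FPKM at 0 h (log2 fold change 4.17, SE 0.35, adjusted p 1.36e-06). For Zm00001eb125030 the values were 11.99, 30.35 and 27.72 FPKM at R2h and 0.33, 0.78 and 0.39 FPKM at 0 h (log2 fold change 3.93, SE 0.32, adjusted p 9.7e-07). In each of these 3 genes replicate 1 gave the lowest R2h value, yet it stood above all 0 h libraries. Without it the log2 fold changes were 4.94 in Zm00001eb335430, 4.50 in Zm00001eb124940 and 4.33 in Zm00001eb125030. Summed over the 43 annotated sHSPs, the FPKM were 6580.9, 11433.8 and 10728.7 at R2h, against 4763.2, 5237.6 and 4652.7 at 0 h. At 1 h the sums were 155733.8, 148588.1 and 143220. Leaving out any 1 of the 6 libraries gave 10 to 12 higher sHSPs and 2 lower ones.

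The most abundant sHSP of unheated leaves was not called at R2h. Zm00001eb124960 had 1994.73, 4189 and 3802.15 FPKM at R2h, against 1719.36, 1936.27 and 1765 FPKM at 0 h, and its log2 fold change of 0.81 did not pass the test (SE 0.42, adjusted p 0.185). R2h replicate 1 lay next to the 0 h libraries in this gene and the other R2h libraries lay above them, with a log2 fold change of 1.14 without replicate 1 that was not called either (adjusted p 0.0867). At the other end, 2 sHSPs fell below their unheated level. Zm00001eb257130 had 14.91, 45.05 and 48.79 FPKM at R2h, against 162.34, 194.11 and 152.82 FPKM at 0 h (log2 fold change −2.36, SE 0.43, adjusted p 0.00118), although its level at 1 h was 1182 ± 34.8 FPKM (SD, n = 3). Zm00001eb125010 had 68.42, 71.19 and 77.89 FPKM at R2h, against 297.51, 328.85 and 243.68 FPKM at 0 h (log2 fold change −1.98, SE 0.24, adjusted p 4.2e-05), and it was low at 1 h as well, at 30.8 ± 10.1 FPKM. The sHSP family at R2h thus held members far above, near and far below their unheated level.

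Of 27 tested chaperonins, 7 were higher DEGs at R2h (25.9%, against 3.96% of all tested and 7.67% of the annotated genes). None was a lower DEG (3 passed an unadjusted p of 0.05 downwards with limma), and the median log2 fold change was 0.72. The count fell to 2 higher and 1 lower with median-ratio scaling, to 3 higher without R2h replicate 2, and the median was 0.55 with median-ratio scaling, and only the largest change is described singly. Zm00001eb065160 had 315.97, 418.16 and 392.79 FPKM at R2h, against 85.38, 80.48 and 79.86 FPKM at 0 h (log2 fold change 2.17, SE 0.20, adjusted p 3.68e-06). The remaining 6 had log2 fold changes of 1.02 to 1.26.

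Among the chaperone lists used here, which lack HSP70 and HSP90, the gene with the highest FPKM at R2h was a BAG gene. Zm00001eb237960, whose protein has the BAG domain that binds HSP70, had 5082.05, 5703.56 and 5236.45 FPKM at R2h, against 505.89, 385.98 and 450.29 FPKM at 0 h (log2 fold change 3.58, SE 0.26, adjusted p 2.64e-07). Its mean at 1 h was 6419 ± 836 FPKM (SD, n = 3), so unlike the sHSPs above it stood at R2h not far below its level under heat. It was the only DEG among 8 tested BAG genes (12.5% higher, against 3.96% of all tested and 7.67% of the annotated genes). Among 4 tested ClpA/ClpB genes, Zm00001eb393250 had 61.2, 63.98 and 64.05 FPKM at R2h, against 30.14, 23.33 and 32.08 FPKM at 0 h (log2 fold change 1.13, SE 0.26, adjusted p 0.00566). This call was lost when any 1 of the 6 libraries was left out (adjusted p 0.0117 to 0.0323), although the groups did not overlap.

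Several helpers of HSP70 and HSP90 went the opposite way and fell below the unheated level. All 3 tested genes for activators of HSP90 ATPase, which speed the HSP90 cycle, were lower DEGs at R2h (background 1.87%). Their log2 fold changes lay between −2.24 and −2.03. Zm00001eb232010 had 8.14, 10.75 and 10.89 FPKM at R2h, against 52.15, 54.77 and 44.08 FPKM at 0 h (log2 fold change −2.24, SE 0.18, adjusted p 1.03e-06). Zm00001eb177410 had 3.39, 4.38 and 4.31 FPKM at R2h, against 22.38, 20.55 and 22.1 FPKM at 0 h (log2 fold change −2.18, SE 0.15, adjusted p 1.18e-07). Both were far above the unheated level at 1 h, with 397 ± 52.6 FPKM in Zm00001eb232010 and 125 ± 14.3 FPKM in Zm00001eb177410 (SD, n = 3).

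Some DnaJ genes were also lower. Of 10 tested members, none was a higher DEG and 4 were lower DEGs at R2h (background 3.96% and 1.87%), with a median log2 fold change of −1.06, whereas 3 were higher DEGs at 1 h (background 5.79%). With limma, 2 members passed an unadjusted p of 0.05 upwards at R2h. Zm00001eb106600 had 21.17, 23.13 and 23.24 FPKM at R2h, against 72.87, 87.76 and 88.07 FPKM at 0 h (log2 fold change −1.83, SE 0.18, adjusted p 6.46e-06). Zm00001eb018130 had 16.13, 21.65 and 20.25 FPKM at R2h, against 61.35, 71.85 and 74.47 FPKM at 0 h (log2 fold change −1.79, SE 0.17, adjusted p 4.24e-06). The R2h libraries of both genes lay close together and far below every 0 h library. Zm00001eb295770 had 18.29, 40.75 and 35.2 FPKM at R2h, against 103.54, 110.63 and 100.98 FPKM at 0 h (log2 fold change −1.78, SE 0.23, adjusted p 6.24e-05), and 524 ± 61 FPKM at 1 h. Zm00001eb345630, the fourth, fell by 1.11 on the log2 scale (SE 0.16, adjusted p 0.000151). The most abundant DnaJ gene, Zm00001eb103670, had 36.27, 41.35 and 42.4 FPKM at R2h, against 135.38, 162.08 and 139.58 FPKM at 0 h and was not called (log2 fold change −1.84, adjusted p 0.0153), with a larger SE of 0.50. The SE comes from the spread within all 6 groups. In this gene the uneven libraries were those labelled *nf-ya1*, with 82.23, 17.85 and 44.81 FPKM at 0 h and 27.67, 4.06 and 12.75 FPKM at R2h.

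Calreticulin and calnexin genes, which encode lectin chaperones of the endoplasmic reticulum, followed. Of 5 tested, 3 were lower DEGs at R2h (background 1.87%, median log2 fold change −1.36), none was a higher DEG, and no member passed an unadjusted p of 0.05 upwards, while all 5 were higher DEGs at 1 h (background 5.79%). Zm00001eb304290 had 8.23, 11.58 and 11.04 FPKM at R2h, against 48.76, 48.81 and 32.79 FPKM at 0 h (log2 fold change −1.97, SE 0.16, adjusted p 9.71e-07). Zm00001eb084590 had 24.17, 33.9 and 31 FPKM at R2h, against 88.97, 92.11 and 65.75 FPKM at 0 h (log2 fold change −1.44, SE 0.16, adjusted p 1.67e-05). In Zm00001eb096980 the log2 fold change was −1.36 (SE 0.18, adjusted p 7.83e-05). All 3 lay at 257 ± 27.5, 372 ± 58 and 85.8 ± 8.17 FPKM at 1 h in this order (SD, n = 3). With any 1 library left out and under both other scalings, these 3 lists had 3 lower HSP90 activators, 4 to 5 lower DnaJ genes and 3 lower calreticulin or calnexin genes.

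**Figure D2:**
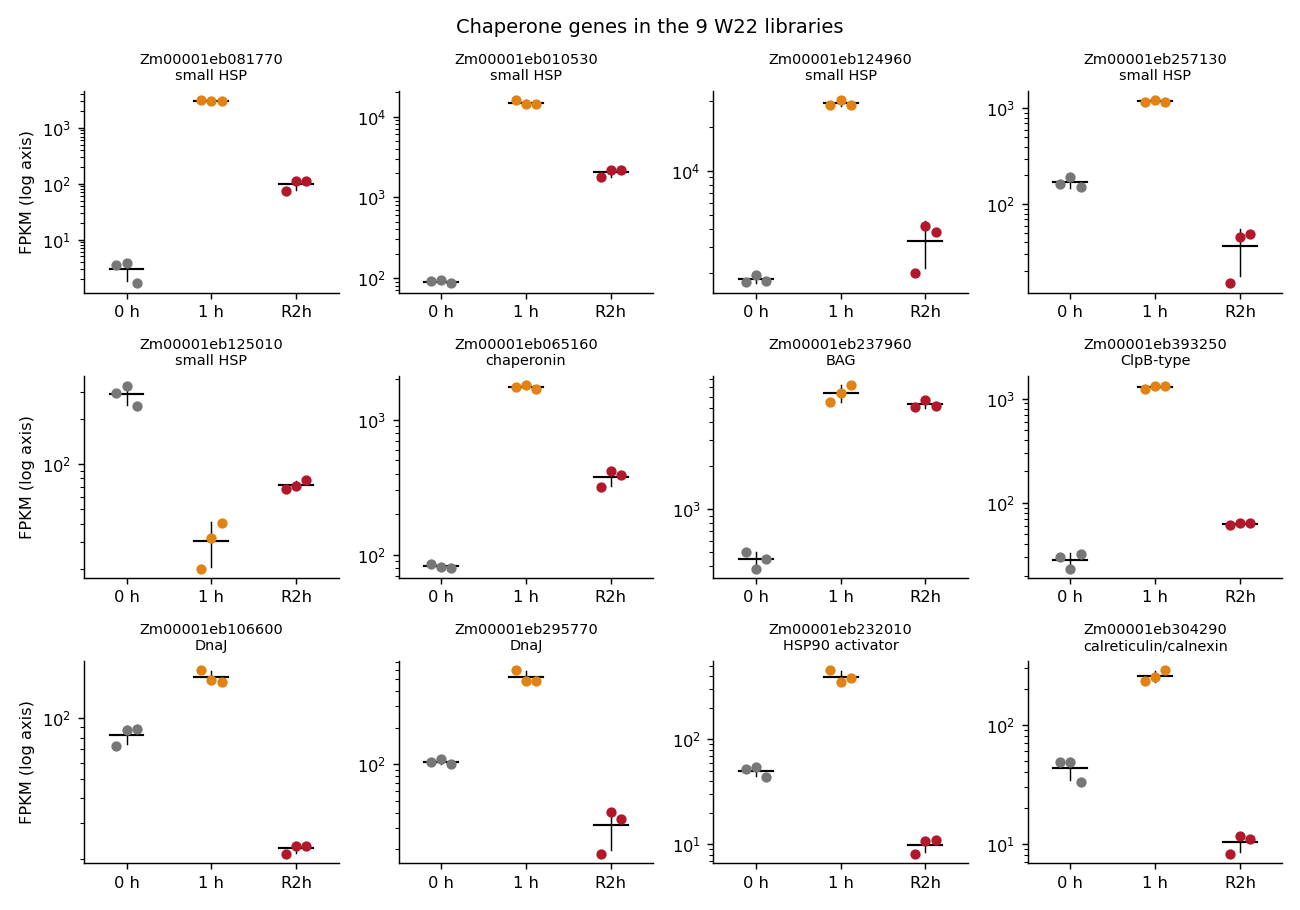
FPKM (log axes) of 12 chaperone genes in the 9 W22 libraries at 0 h, 1 h and R2h, with points for libraries, horizontal bars for means and vertical bars for 1 SD. The sHSPs Zm00001eb081770 and Zm00001eb010530, the chaperonin and the BAG gene lie above 0 h at R2h, while the DnaJ, HSP90 activator and calreticulin/calnexin genes shown lie above 0 h at 1 h and below 0 h at R2h.

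Other genes rose at R2h that had low levels at 1 h. On log2(FPKM + 1) the largest rise among DEGs with a mean of at least 10 FPKM was that of Zm00001eb356910, an unannotated gene, with 248.7, 104.18 and 141.05 FPKM at R2h, against 2.67, 3.99 and 1.59 FPKM at 0 h (log2 fold change 5.42, SE 0.35, adjusted p 7.95e-08). Its level was lower still at 1 h, at 0.483 ± 0.144 FPKM (SD, n = 3). Zm00001eb150500, also unannotated, had 113.31, 82.2 and 95.9 FPKM at R2h, against 5.69, 6.22 and 4.91 FPKM at 0 h (log2 fold change 3.89, SE 0.21, adjusted p 1.67e-08), and 2.43 ± 0.539 FPKM at 1 h. Among the DEGs, one of the 3 largest rises in absolute FPKM was that of the unannotated gene Zm00001eb032690, with 3948.52, 5505.34 and 5301.17 FPKM at R2h, against 750.23, 849.52 and 667.5 FPKM at 0 h (log2 fold change 2.69, SE 0.24, adjusted p 2.05e-06). The other 2 were the BAG gene and the sHSP Zm00001eb010530 above.

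Among the annotated genes of this kind was a catalase, an enzyme that breaks down hydrogen peroxide. Zm00001eb209570 had 101, 176.58 and 155.17 FPKM at R2h, against 9, 10.25 and 6.8 FPKM at 0 h (log2 fold change 3.88, SE 0.49, adjusted p 5.59e-05), and 3.08 ± 0.705 FPKM at 1 h (SD, n = 3). It was the only DEG among 11 tested genes of the antioxidant list (9.09% higher, against 3.96% of all tested and 7.67% of the annotated genes). Zm00001eb188280, a carotenoid oxygenase, the class of enzymes that cleave carotenoids and includes the enzymes of abscisic acid and strigolactone synthesis, had 230.7, 217.68 and 218.55 FPKM at R2h, against 17.9, 17.65 and 16.44 FPKM at 0 h (log2 fold change 3.61, SE 0.40, adjusted p 1.77e-05), and 1.92 ± 0.652 FPKM at 1 h. The replicates of this gene lay within a few percent of each other in both groups. Zm00001eb297390, with the Band 7 domain of membrane scaffold proteins such as prohibitins, had 237.24, 200.79 and 205.59 FPKM at R2h, against 31.68, 32.01 and 29.1 FPKM at 0 h (log2 fold change 2.75, SE 0.19, adjusted p 1.24e-07).

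The Band 7 domain was picked from the 86 annotations with at least 5 tested genes after their values were known. Of its 5 tested genes, 3 were higher DEGs (background 3.96%, and 7.67% of the annotated genes). None was lower, and no member passed an unadjusted p of 0.05 downwards with limma. Zm00001eb424310 rose by 1.35 on the log2 scale (SE 0.18, adjusted p 7.26e-05). Zm00001eb064000 rose by 1.19 (SE 0.26, adjusted p 0.004), which was called in 1 of 6 fits with a library left out (adjusted p 0.00822 to 0.0193). In 31 of the 86 annotations no gene was called.

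Asparagine synthetase, which stores nitrogen in asparagine, was above its unheated level both at R2h and at 1 h. *ASN3* (Zm00001eb013430) had 86.57, 275.76 and 224.11 FPKM at R2h, against 17.76, 20.19 and 6.8 FPKM at 0 h (log2 fold change 3.59, SE 0.52, adjusted p 0.000177), and 760 ± 463 FPKM at 1 h (SD, n = 3). Replicate 1 was the lowest R2h library here too, and without it the log2 fold change was 4.10. Of 53 tested amino acid transporters, 3 were higher DEGs and 1 was lower, shares near the 3.96% and 1.87% of all tested genes. The lower one was not called without 0 h replicate 1 or 2, and 2 were lower without replicate 3. Zm00001eb368680 had the largest rise of these, with 13.85, 19.94 and 17.37 FPKM at R2h, against 3.19, 3.66 and 4.06 FPKM at 0 h (log2 fold change 1.95, SE 0.23, adjusted p 2.67e-05).

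A few large rises belonged to genes with values of 0 or with uneven libraries. Zm00001eb317320 was listed at 16.33, 55.84 and 10.79 FPKM at R2h and at 0 in the 3 0 h libraries, so no fold is given, and the call did not hold when any 1 library was left out (adjusted p 0.0155 to 0.0478). Zm00001eb351210 was listed at 135.83, 174.26 and 130.12 FPKM at R2h, and at 0, 61.16 and 12.53 FPKM at 0 h (adjusted p 0.00617), and its call held in 2 of 6 fits with a library left out. Both genes are unannotated.

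Some transcription factors of the AP2/ERF and bZIP lists were called. Of 83 tested AP2/ERF genes, a family with many regulators of stress and of ethylene responses, 5 were higher and 2 lower DEGs (6.02% and 2.41%), with a median log2 fold change of 0.00. These shares lay between the 3.96% and 1.87% of all tested genes and the 7.67% and 4.17% of the annotated genes. Zm00001eb313850 had 58.07, 80.3 and 72.19 FPKM at R2h, against 9.75, 8.59 and 9.45 FPKM at 0 h (log2 fold change 2.78, SE 0.43, adjusted p 0.000322). Zm00001eb074930 had 18.7, 17.81 and 18.11 FPKM at R2h, against 3.29, 3.9 and 3.5 FPKM at 0 h (log2 fold change 2.08, SE 0.15, adjusted p 3.36e-07). Zm00001eb352580 fell, with 2.99, 3.63 and 2.34 FPKM at R2h, against 21.12, 25.68 and 15.94 FPKM at 0 h (log2 fold change −2.45, SE 0.21, adjusted p 1.63e-06). Zm00001eb352570 fell as well (log2 fold change −1.36, SE 0.12, adjusted p 1.84e-06), and the lower members numbered 4 without 0 h replicate 3.

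Of 44 tested bZIP genes, 2 were higher and 3 lower DEGs (4.55% and 6.82%, against 7.67% and 4.17% of the annotated genes). Zm00001eb031210 had 16.83, 16.28 and 14.87 FPKM at R2h, against 0.41, 0.48 and 0.25 FPKM at 0 h (log2 fold change 3.62, SE 0.17, adjusted p 4.64e-09), and 0.113 ± 0.0473 FPKM at 1 h (SD, n = 3). This was a switch from a barely listed to a moderately expressed transcript, with little spread within either group. Zm00001eb100750 rose by 1.33 on the log2 scale (SE 0.14, adjusted p 1.21e-05). Zm00001eb331170 had 18.1, 19.14 and 18.08 FPKM at R2h, against 51.49, 44.17 and 52.22 FPKM at 0 h (log2 fold change −1.37, SE 0.23, adjusted p 0.000503). The most abundant bZIP gene of unheated leaves, Zm00001eb389660, had a log2 fold change of 0.44 that did not pass the test (adjusted p 0.133). Without 0 h replicate 2, 1 bZIP gene was lower.

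CCT and B-box genes, which include regulators of flowering, light signalling and the circadian clock, had 6 higher and 2 lower DEGs among 48 tested (12.5% and 4.17%), with a median log2 fold change of −0.15. Among all tested genes the shares were 3.96% and 1.87%, and among the annotated genes 7.67% and 4.17%. Zm00001eb092230 had 4.59, 5.16 and 5.11 FPKM at R2h, against 0.52, 0.32 and 0.62 FPKM at 0 h (log2 fold change 2.01, SE 0.15, adjusted p 3.18e-07). Zm00001eb319590 had 40.07, 35.85 and 36.02 FPKM at R2h, against 10.27, 9.43 and 11.15 FPKM at 0 h (log2 fold change 1.76, SE 0.20, adjusted p 1.9e-05). Zm00001eb170920 fell, with 12.31, 11.29 and 11.82 FPKM at R2h, against 58.01, 55.24 and 54.55 FPKM at 0 h (log2 fold change −2.15, SE 0.18, adjusted p 1.27e-06). The hour of sampling was not given for either group, and time of day and recovery cannot be told apart in genes of this class.

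Several genes that fell had uneven values at 0 h, among them genes with a chitin-binding or Barwin domain. On log2(FPKM + 1) the largest fall was that of Zm00001eb272090, an unannotated gene, with 1.14, 2.09 and 2.95 FPKM at R2h, against 185.83, 211.74 and 38.53 FPKM at 0 h (log2 fold change −5.29, SE 0.68, adjusted p 6.58e-05). The groups did not overlap, but 0 h replicate 3 was far below the other 0 h libraries. Zm00001eb078730, with a chitin-binding domain as in plant chitinases and lectins, had 0.14, 0.55 and 0.34 FPKM at R2h, against 36.36, 37.29 and 6.23 FPKM at 0 h (log2 fold change −4.03, SE 0.46, adjusted p 2.36e-05). Zm00001eb167720, with the Barwin domain of pathogenesis-related proteins, had 1.97, 2.19 and 1.84 FPKM at R2h, against 38.81, 43.86 and 10.08 FPKM at 0 h (log2 fold change −3.17, SE 0.57, adjusted p 0.000997). In both genes 0 h replicate 3 again had the lowest unheated value and still stood above every R2h library. The unannotated Zm00001eb141540 had 1.86, 3.46 and 3.14 FPKM at R2h, against 90.88, 102.11 and 23.19 FPKM at 0 h (log2 fold change −4.03, SE 0.49, adjusted p 4.13e-05), and Zm00001eb391450 had 3.09, 5.08 and 4.88 FPKM at R2h, against 65.75, 71.04 and 24.35 FPKM at 0 h (log2 fold change −3.23, SE 0.36, adjusted p 1.7e-05). Without 0 h replicate 3 the log2 fold changes were −3.82 in Zm00001eb167720, −4.70 in Zm00001eb141540 and −3.72 in Zm00001eb391450, all of them called.

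Bet v I/Major latex proteins, a class that includes the pathogenesis-related proteins of the PR-10 type, moved in both directions. Of 6 tested, 3 were lower DEGs (background 1.87%, and 4.17% of the annotated genes). In the other direction, 1 was a higher DEG (background 3.96%, and 7.67% of the annotated genes). Zm00001eb014010 had 2.22, 4.85 and 6.42 FPKM at R2h, against 93.47, 97.63 and 21.31 FPKM at 0 h (log2 fold change −3.51, SE 0.67, adjusted p 0.00158). Its calls were lost without 0 h replicate 1 or 2 (adjusted p up to 0.011). Zm00001eb014000 (log2 fold change −2.97, adjusted p 0.00674) and Zm00001eb013990 (log2 fold change −2.79, adjusted p 0.00384) had like profiles and each kept its call in 1 of 6 fits with a library left out, that without 0 h replicate 3. These IDs are neighbours in number, and reads shared between near-identical copies could not be checked, so they may not be independent. Zm00001eb308400 rose, with 38.04, 57.85 and 53.52 FPKM at R2h, against 4.93, 8.24 and 2.5 FPKM at 0 h (log2 fold change 3.12, SE 0.39, adjusted p 4.98e-05).

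In 69 of the 422 lower DEGs 0 h replicate 3 was under 0.5 times both other 0 h libraries, and in none was it over 2 times both. Without that library 438 lower DEGs were called, of which 356 were among the 422. Without 0 h replicate 1 or 2 there were 287 and 290 lower DEGs. Zm00001eb272090 had a log2 fold change of −6.07 without it (adjusted p 2.82e-05) and Zm00001eb078730 one of −4.83 (adjusted p 6.13e-08). The size of these falls therefore depended on which unheated libraries were taken.

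Falls that did not depend on a single library were found among abundant unannotated genes. Zm00001eb287790 had 11.9, 16.85 and 17.35 FPKM at R2h, against 258.66, 290.09 and 278.93 FPKM at 0 h (log2 fold change −4.10, SE 0.26, adjusted p 6.02e-08), and 969 ± 79.7 FPKM at 1 h (SD, n = 3). Zm00001eb034130 had 44.05, 68.02 and 62.5 FPKM at R2h, against 569.14, 614.85 and 644.82 FPKM at 0 h (log2 fold change −3.39, SE 0.16, adjusted p 5.74e-09), and 3224 ± 289 FPKM at 1 h. Both thus lay above the unheated level at 1 h and below it at R2h, as the HSP90 activators did. Zm00001eb008360 had 44.53, 89.94 and 87.3 FPKM at R2h, against 766.49, 775.16 and 864.44 FPKM at 0 h (log2 fold change −3.49, SE 0.40, adjusted p 2.48e-05), and Zm00001eb004670 had 9.39, 7.04 and 7.05 FPKM at R2h, against 77.58, 80.74 and 89.56 FPKM at 0 h (log2 fold change −3.25, SE 0.26, adjusted p 7.76e-07). The levels of these 2 genes at 1 h were near those at 0 h, with 764 ± 93.5 and 72.6 ± 14.4 FPKM in this order, so that their low level was seen at R2h only among the 3 times. Zm00001eb069330 was listed at 0 in the 3 R2h libraries and at 14.61, 15.08 and 7.75 FPKM at 0 h, and its call did not hold when any 1 library was left out (adjusted p 0.013 to 0.0276).

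Among the DEGs, the 3 largest falls in absolute FPKM were those of Zm00001eb157900, Zm00001eb172450 and Zm00001eb415760, which are unannotated. Zm00001eb157900 had 1376.65, 1291.32 and 1209.77 FPKM at R2h, against 2632.1, 2818.63 and 2907.17 FPKM at 0 h (log2 fold change −1.11, SE 0.17, adjusted p 0.000237), a fall under the threshold with quantile normalization (−0.91). Zm00001eb172450 averaged 467 ± 42.9 FPKM at R2h and 1545 ± 266 FPKM at 0 h (SD, n = 3 each; log2 fold change −1.71, adjusted p 2.67e-05), and Zm00001eb415760 averaged 405 ± 20.6 FPKM at R2h and 1183 ± 87.9 FPKM at 0 h (log2 fold change −1.54, adjusted p 6.95e-05). Each of the 3 was also low at 1 h, with 1066 ± 86.5, 728 ± 35.1 and 391 ± 32.4 FPKM in this order.

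Nearly all genes for aromatic amino acid lyases fell. These enzymes (phenylalanine and tyrosine ammonia-lyases) make cinnamate-type acids, from which lignin, flavonoids and many defence compounds are built, and this annotation had the largest share of DEGs of the 86, a choice made after its values were seen. All 8 tested genes had every R2h library below every 0 h library, as did 14.6% of all tested genes. Of the 8, 7 were lower DEGs, against 1.87% of all tested and 4.17% of the annotated genes. The median log2 fold change was −1.64. Zm00001eb185240 had 28.6, 53.59 and 48.42 FPKM at R2h, against 160.15, 164.96 and 123.54 FPKM at 0 h (log2 fold change −1.79, SE 0.35, adjusted p 0.00193). Zm00001eb247630 had 53.14, 74.2 and 67.5 FPKM at R2h, against 149.18, 154.68 and 96.97 FPKM at 0 h (log2 fold change −1.01, SE 0.21, adjusted p 0.00263). Zm00001eb077220 had 6.83, 5.71 and 5.96 FPKM at R2h, against 27.6, 30.31 and 23.39 FPKM at 0 h (log2 fold change −1.97, SE 0.25, adjusted p 6.78e-05). Both of the most abundant genes were lowest in replicate 1 at R2h and in replicate 3 at 0 h.

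The other lyases had the same direction. Zm00001eb247660, Zm00001eb247650, Zm00001eb185260 and Zm00001eb185250 had log2 fold changes of −1.71, −1.68, −1.59 and −1.16, and Zm00001eb077230, with 2.36, 6.4 and 6.01 FPKM at R2h, against 13.73, 13.66 and 11.63 FPKM at 0 h, was not called (log2 fold change −1.32, adjusted p 0.0247). The number of lower lyases was 2 to 6 when 1 library was left out, and it was 2 without 0 h replicate 2. At 1 h the most abundant members were lower still, with 21.7 ± 4.1 FPKM for Zm00001eb185240 and 27.9 ± 4.34 FPKM for Zm00001eb247630 (SD, n = 3). Several of these IDs are neighbours in number, and reads shared between copies could not be checked.

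Among the other annotated falls, Zm00001eb078450 with a 14-3-3 domain, the fold of adaptor proteins that bind phosphorylated partners, had 3.89, 3.74 and 2.53 FPKM at R2h, against 21.83, 21.37 and 39.03 FPKM at 0 h (log2 fold change −2.65, SE 0.33, adjusted p 4.43e-05). Here 0 h replicate 3 was the highest library. Zm00001eb021310, an alpha/beta hydrolase, fell by 2.59 on the log2 scale (SE 0.38, adjusted p 0.000204). Zm00001eb283460, an acid phosphatase of class B type, had 3.84, 6.65 and 6.24 FPKM at R2h, against 46.02, 51.5 and 21.55 FPKM at 0 h (log2 fold change −2.57, SE 0.56, adjusted p 0.00405), and kept its call in 1 of 6 fits with a library left out.

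**Figure D3:**
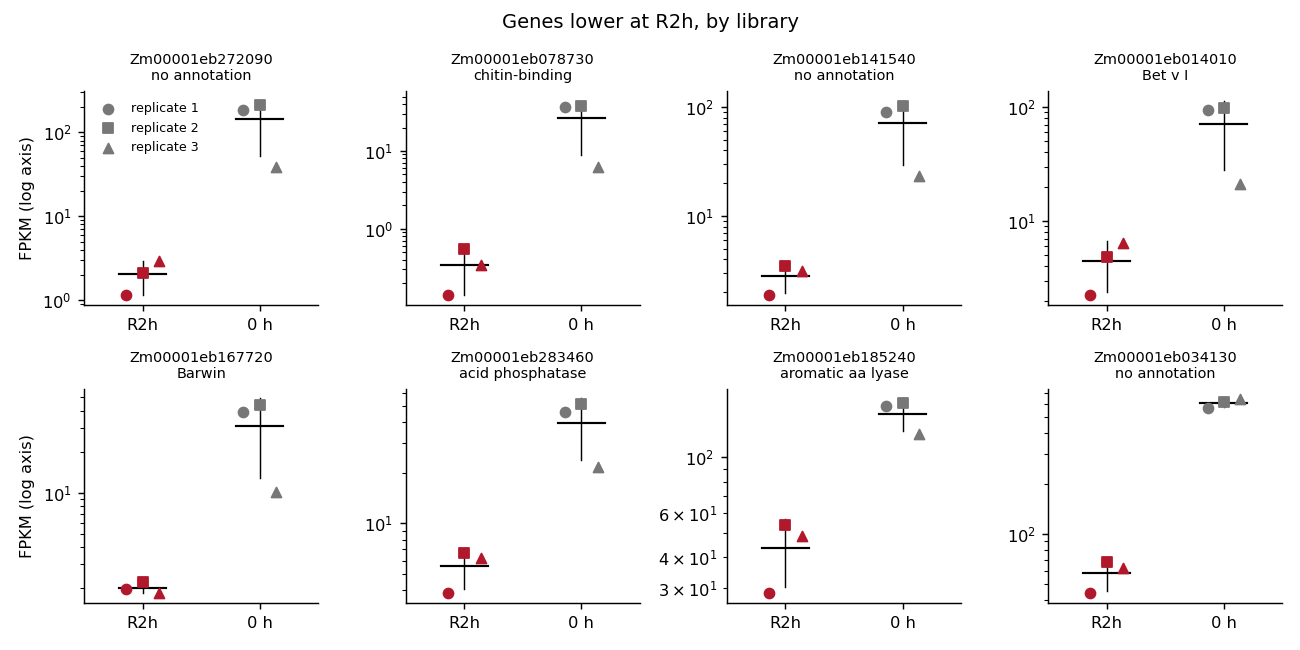
FPKM (log axes) of 8 genes lower at R2h in the 3 R2h libraries (left) and the 3 0 h libraries (right) of W22, with a marker shape for each replicate number, horizontal bars for means and vertical bars for 1 SD. In 7 of the 8 genes the triangle of 0 h replicate 3 is the lowest 0 h value, and in all 8 every R2h library lies below every 0 h library.

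No light-harvesting gene was a DEG at R2h. Of 21 tested light-harvesting genes, which had 13 lower DEGs at 1 h (background 20.7%), none was called at R2h with limma (background 5.83% in either direction), and 3 passed an unadjusted p of 0.05 upwards and 1 downwards. Their median log2 fold change was 0.07. Zm00001eb049640, the most abundant of them, had 13456.57, 11509.73 and 12484.96 FPKM at R2h, against 12824.37, 14626.79 and 14114.38 FPKM at 0 h (log2 fold change −0.15, SE 0.28, adjusted p 0.782), and 2726 ± 639 FPKM at 1 h (SD, n = 3). The R2h and 0 h libraries overlapped in this gene. Not every uncalled member was flat. Zm00001eb161410 had 20.44, 28.57 and 29.56 FPKM at R2h, against 0, 0 and 3.56 FPKM at 0 h (log2 fold change 4.02, SE 1.82, adjusted p 0.13). Zm00001eb255850 passed the adjusted p downwards (0.00712), but its log2 fold change of −0.76 did not reach the fold threshold. Zm00001eb158800, a carbonic anhydrase, the enzyme that supplies bicarbonate for the first step of carbon fixation in maize, had 697.21, 743.64 and 720.34 FPKM at R2h, against 1534.43, 1539.66 and 1340.49 FPKM at 0 h (log2 fold change −1.03, SE 0.25, adjusted p 0.00741), but the call did not hold when any 1 library was left out (adjusted p 0.0162 to 0.03).

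In several other lists no gene was a DEG at R2h. None was called among 33 AUX/IAA genes (repressors of auxin signalling), 34 genes with B3 domains and auxin response factors, 30 lipid transfer proteins, 14 autophagy genes and 8 genes with a histone H4-type fold, but without 0 h replicate 3, 1 AUX/IAA gene was higher and 1 lipid transfer protein was lower. At an unadjusted p of 0.05 with limma, 5 AUX/IAA genes were higher and 1 lower, 4 B3 genes were higher and 3 lower, 4 lipid transfer proteins were lower, 3 autophagy genes were higher and 1 lower, and 2 histone-type genes were higher. Their median log2 fold changes were 0.08, 0.01, 0.04, 0.03 and 0.21 in this order. At 1 h, when 20.7% of all tested genes were lower DEGs and 5.79% higher, 12 AUX/IAA and 21 B3 genes were lower DEGs and none of either was higher. Cellulose synthases had 1 higher DEG among 27 tested (3.7%, background 3.96%). This call was lost without R2h replicate 2 and with both other scalings, where 3 were lower instead.

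In the list of abscisic acid and water stress genes 1 of 13 tested was called, a higher DEG. This share of 7.69% was near the 7.67% of the annotated genes (3.96% of all tested). Zm00001eb407710, an ABA/WDS induced protein, had 1625.53, 3406.59 and 3118.23 FPKM at R2h, against 1037.25, 1168.87 and 679.22 FPKM at 0 h (log2 fold change 1.46, SE 0.32, adjusted p 0.00375), and kept its call in 2 of 6 fits with a library left out (highest adjusted p 0.0243).

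**Figure D4:**
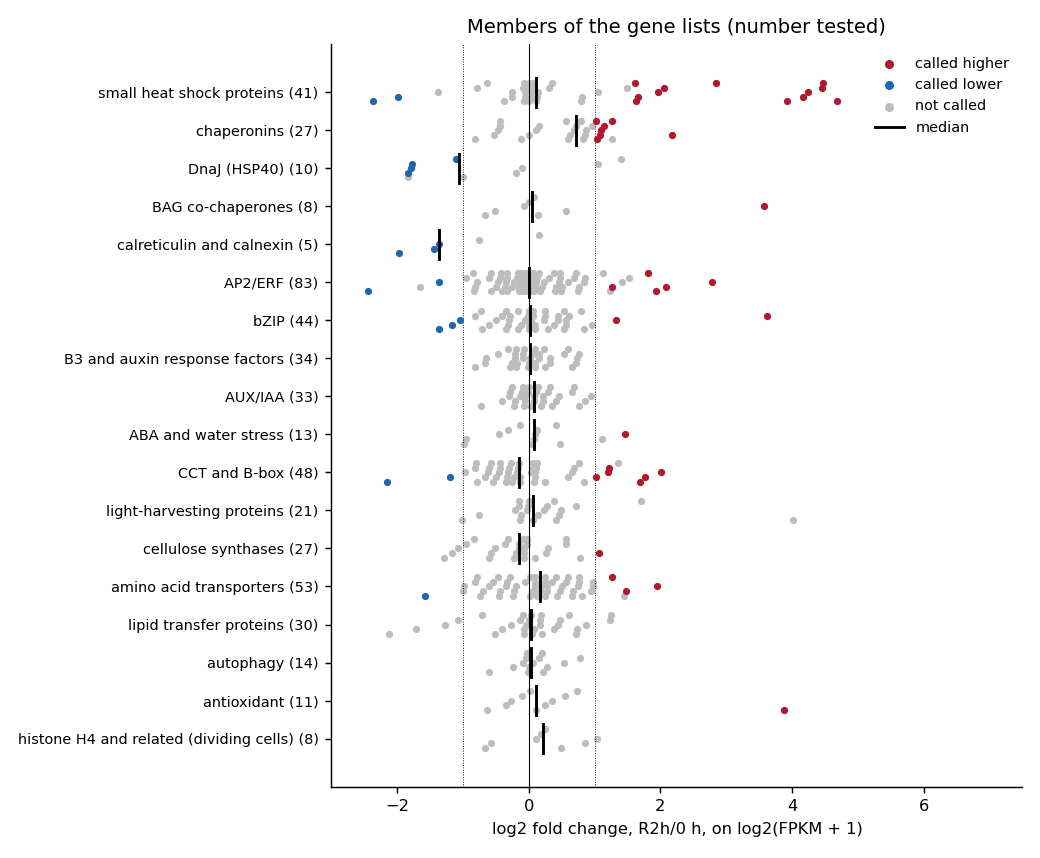
Log2 fold change of R2h over 0 h in W22 (horizontal axis, on log2(FPKM + 1)) of the tested members of each gene list with at least 5 of them (rows, number tested in brackets), red for higher DEGs, blue for lower DEGs, grey for genes not called and a black bar for the median. The sHSPs spread from −2.36 to 4.69, the DnaJ and calreticulin/calnexin medians lie at −1.06 and −1.36, and the other medians lie near 0 except the chaperonins at 0.72.

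The gene mutated in the other line and its 6 studied candidate targets were not called in W22 at R2h, except *ASN3* above. *ZmNF-YA1* (Zm00001eb005690) had 11.35, 15.13 and 12.42 FPKM at R2h, against 23.12, 22.79 and 26.55 FPKM at 0 h. The groups did not overlap, and the log2 fold change was −0.85 (SE 0.20, adjusted p 0.00701), short of the fold threshold, which it reached with median-ratio scaling and quantile normalization (−1.02 in both). *bZIP100* (Zm00001eb373300) had 5.04, 8.26 and 7.47 FPKM at R2h, against 11.97, 12.99 and 10.51 FPKM at 0 h (log2 fold change −0.71, adjusted p 0.0342). *GRF1* (Zm00001eb080570), for general regulatory factor 1, had 178.32, 179.2 and 173.13 FPKM at R2h, against 246.06, 262.3 and 253.19 FPKM at 0 h (log2 fold change −0.52, adjusted p 0.0566). Neither passed the test, although the R2h libraries of both lay below all 0 h libraries.

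*HUP26* (Zm00001eb406490), a hypoxia response gene of unknown function, had 123.75, 387.03 and 358.96 FPKM at R2h, against 142.17, 145.62 and 101.66 FPKM at 0 h. Replicate 1 lay within the 0 h range and the log2 fold change of 1.01 did not pass the test (SE 0.39, adjusted p 0.0796), while without that library it was 1.53 (adjusted p 0.00507). *NIP2c* (Zm00001eb372380), a membrane channel of the aquaporin family, had 18.2, 28.31 and 26.26 FPKM at R2h, against 24.97, 26.62 and 19.4 FPKM at 0 h (log2 fold change 0.02, adjusted p 0.994). *JIH5* (Zm00001eb211100), a jasmonoyl-isoleucine hydrolase, was below 1 FPKM in all 6 libraries (log2 fold change 0.04, adjusted p 0.967). The libraries of the 2 groups overlapped in these 3 genes.

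The R2h/0 h comparison of the libraries labelled *nf-ya1* shares no library with that of W22. There, 1555 DEGs were higher (6.89% of the tested genes) and 2610 lower (11.6%). Of the 893 higher DEGs of W22, 371 were also higher DEGs in the libraries labelled *nf-ya1*, which is 41.5% of the W22 genes and 23.9% of the *nf-ya1* genes, and 9 were lower DEGs. Of the 422 lower DEGs of W22, 207 were also lower DEGs, 49.1% of the W22 and 7.93% of the *nf-ya1* genes, and 10 were higher DEGs. The sign was shared by 83.2% of the higher DEGs of W22, against 43.9% of all tested genes with a rise in the libraries labelled *nf-ya1*, and by 83.9% of the lower DEGs, against 55.9% of all tested genes with a fall. Most W22 DEGs thus had the same sign in the other line and a smaller share was called there, with median log2 fold changes there of 0.75 for the higher and −1.05 for the lower DEGs, against 1.29 and −1.46 in W22, where they had been selected. Across all tested genes the log2 fold changes of both comparisons had a Pearson's r of 0.37, given as a description over genes, which are not independent replicates.

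The difference between the recoveries, W22 minus *nf-ya1*, was tested in the same fit. It was called larger in 2183 genes (9.67% of the tested genes) and smaller in 713 (3.16%), a balance that became 1092 and 1069 with quantile normalization. Among the 893 higher DEGs of W22, 203 had a larger and 33 a smaller value in W22, and among the 422 lower DEGs 28 had a larger and 83 a smaller one. The W22 values that chose these DEGs also enter the difference. Selection alone therefore tilts both pairs of counts towards a stronger change in W22, and no conclusion is drawn from the tilt. For most DEGs of W22 recovery no difference between the lines was called.

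The sHSPs were among the exceptions. In 18 of the 41 tested sHSPs the difference was called negative and in 7 positive (background 3.16% and 9.67%). The libraries labelled *nf-ya1* had 21 higher and 7 lower sHSPs (background 6.89% and 11.6%), against 12 higher and 2 lower in W22. The median log2 fold change was 2.39 there, against 0.11 in W22. The 7 positive and the 7 lower ones had at most 2.35 FPKM in every W22 library. Such genes could pass the filter through the libraries labelled *nf-ya1* alone, as did Zm00001eb222770, which was at 0 in W22. Their calls are therefore no evidence about the sHSPs expressed in W22. Zm00001eb124960, not called in W22, had 3991.03, 7967.22 and 5826.59 FPKM at R2h, against 267.47, 157.64 and 696.24 FPKM at 0 h, in the libraries labelled *nf-ya1* (difference −3.39, SE 0.59, adjusted p 0.000826). Its unheated level was thus lower in those libraries than the 1719.36 to 1936.27 FPKM of W22, and its R2h level overlapped that of W22. In the AP2/ERF gene Zm00001eb074930, which rose in W22, the libraries labelled *nf-ya1* had 17.4, 12.63 and 14.21 FPKM at R2h, against 30.09, 38.05 and 28.06 FPKM at 0 h (difference 3.15, SE 0.22, adjusted p 2.55e-07). The R2h levels of both lines were alike and the unheated levels were not.

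The falls of Zm00001eb272090 and Zm00001eb078730 differed between the lines. Zm00001eb272090 had 8.19, 0.65 and 4.84 FPKM at R2h, against 2.22, 1.26 and 0.49 FPKM at 0 h there (difference −6.30, SE 0.97, adjusted p 0.000326), and Zm00001eb078730 had 0.14, 0.21 and 0.07 FPKM at R2h, against 1.03, 0.4 and 0 FPKM at 0 h (difference −3.72, SE 0.65, adjusted p 0.000891). These genes were thus low at both times in the libraries labelled *nf-ya1*, while W22 was high at 0 h. Of the lyases, 8 of 8 were lower DEGs in the libraries labelled *nf-ya1*, where 11.6% of all tested genes were lower. Their median log2 fold change was −3.21 there, against −1.64 in W22. Of the HSP90 activators and the DnaJ genes, 3 of 3 and 5 of 10 were lower DEGs in the libraries labelled *nf-ya1*, and the BAG gene Zm00001eb237960 had a log2 fold change of 3.90 there, against 3.58 in W22 (difference −0.32, adjusted p 0.533).

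**Figure D5:**
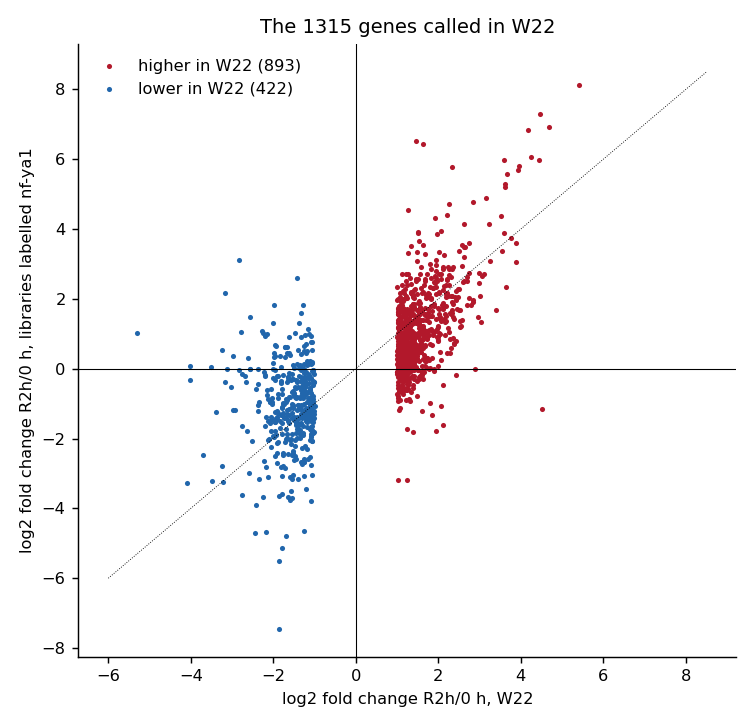
Log2 fold change of R2h over 0 h in the libraries labelled *nf-ya1* (vertical axis) against that in W22 (horizontal axis), both on log2(FPKM + 1), for the 893 higher (red) and 422 lower (blue) DEGs of W22, with a dotted line where both are equal. Most red points lie above 0 and most blue points below 0 on the vertical axis (83.2% and 83.9%), and the empty middle on the horizontal axis is the fold threshold that chose the genes in W22.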

How the data were processed

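The 18 libraries were made from leaf RNA and sequenced by BGI on the BGISEQ-500 platform. The authors deposited 1 table of FPKM values, rounded to 2 decimals, for 36321 genes, of which 33388 have an ID of the maize gene set and 2933 do not. Reads were aligned to the maize B73 reference by the authors' sequencing provider. Aligner versions are not given in the sources used here. FPKM are relative to the mapped fragments of each library, so a few very abundant transcripts can shift all others.

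Columns were assigned to samples by their labels, and 0 columns were left without a sample. Values were transformed as log2(FPKM + 1). The 22572 genes that reached 1 FPKM in 3 or more libraries were fitted in R 4.3.3 with limma 3.58.1, with 1 mean for each of the 6 groups over all 18 libraries, empirical Bayes moderation with a trend and two-sided tests. The Benjamini-Hochberg adjustment covered all tested genes. The exact permutation test of 3 libraries against 3 cannot go below 0.1, so all p-values come from limma. The scripts were tested on simulated data with known changes. Tables and figures were made with Python 3.11.15, pandas 2.3.3, NumPy 2.4.6 and Matplotlib 3.10.9.

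Gene lists were made from the protein domain names in the supplied part of the study's DEG table (1996 genes, of which 1773 were tested). The study chose these genes on the same libraries, so the lists are no independent evidence of direction. The lists and genes were chosen with earlier results of these data known. Genes were named by rule as the 10 largest rises and 10 largest falls among DEGs with no overlap between groups and a mean of at least 10 FPKM in the higher group, the same among annotated genes, the largest changes and the most abundant member in each list, the genes the study names with an ID, the 3 largest changes of mean FPKM in each direction, the genes nearest the fold threshold and the 3 largest differences between the lines. Of the genes so selected, the text describes those in full that its groups turn on. Members of annotations with a share of DEGs of at least 40% were added after their values were seen.

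Alternatives were other pseudocounts, no filter on low values, a mean of at least 5 FPKM, median-ratio scaling, quantile normalization, a replicate block, robust moderation, no trend, the treat test, a fit of the libraries compared only, other thresholds and leaving out each library in turn. Promoter motifs, coordinates and sequences were not analysed here.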

Additional observations from a re-analysis of the deposited data

Results flagged for a closer look

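In 33 of the genes named, the change during recovery differed between W22 and the libraries labelled *nf-ya1*, by limma's test of the difference of the log2 fold changes (R2h over 0 h in W22 minus that in the libraries labelled *nf-ya1*) with an adjusted p no higher than 0.01 and a difference of 1 or more in either direction. No explanation was tested. Of all tested genes, 9.67% had a larger and 3.16% a smaller value in W22. The 33 are out of 88 named genes, and the count cannot be set against these shares. The 3 largest differences in each direction were named for this same difference. Many others were named for a large change in W22, which is a part of the difference.

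Among sHSPs the difference was −2.24 in Zm00001eb081770, −2.83 in Zm00001eb010530, −1.83 in Zm00001eb337690, −2.66 in Zm00001eb124940, −1.75 in Zm00001eb125030, −2.31 in Zm00001eb125010 and −3.39 in Zm00001eb124960. In Zm00001eb010530 the libraries labelled *nf-ya1* had 2705.84, 5543.57 and 3990.95 FPKM at R2h, against 13.58, 17.37 and 55.29 FPKM at 0 h. The ClpA/ClpB gene Zm00001eb393250 had a difference of −1.59.

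Genes that fell in W22 and had negative differences were Zm00001eb272090 (−6.30), the chitin-binding gene Zm00001eb078730 (−3.72), Zm00001eb141540 (−4.12), Zm00001eb034130 (−2.16), Zm00001eb391450 (−3.78), the Barwin gene Zm00001eb167720 (−5.34), the Bet v I gene Zm00001eb013990 (−3.86), the 14-3-3 gene Zm00001eb078450 (−2.26), the acid phosphatase Zm00001eb283460 (−4.04) and the CCT or B-box gene Zm00001eb170920 (−3.15). In Zm00001eb167720 the libraries labelled *nf-ya1* had 11.35, 6.71 and 8.57 FPKM at R2h, against 1.11, 0.23 and 2.92 FPKM at 0 h.

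Among the other genes, the difference was −2.71 in Zm00001eb356910, −1.68 in the bZIP gene Zm00001eb031210, −1.49 in the bZIP gene Zm00001eb389660, 2.26 and 3.15 in the AP2/ERF genes Zm00001eb352580 and Zm00001eb074930, and 1.99 in *NIP2c* (Zm00001eb372380). In the lyases Zm00001eb077230, Zm00001eb247650 and Zm00001eb185260 it was 2.82, 3.11 and 2.18.

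The largest positive differences were 6.75 in Zm00001eb056760, 6.61 in Zm00001eb206730 and 6.27 in Zm00001eb341630. Zm00001eb056760 had 0.72, 0.16 and 0.53 FPKM at R2h, against 304.59, 254.04 and 94.08 FPKM at 0 h, in the libraries labelled *nf-ya1*. The largest negative ones were −8.94 in both Zm00001eb439980 and Zm00001eb434910 (SE 2.18 each) and −8.52 in Zm00001eb105250 (SE 1.93). In W22 at 0 h, Zm00001eb439980 and Zm00001eb434910 were listed at 0, 49.83 and 0 FPKM, and Zm00001eb105250 at 5.24, 54.59 and 2.07 FPKM. The W22 part of these differences thus leaned on 0 h replicate 2, and the W22 change was not called in any of them. Zm00001eb439980 and Zm00001eb434910 had the same values in every W22 library and in the R2h and 0 h libraries labelled *nf-ya1*, so reads of near-identical copies may have been shared, and both were listed at 138.39, 127.82 and 128.92 FPKM at R2h and at 0 in all 0 h libraries labelled *nf-ya1*.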

How the results depend on the processing

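In W22, 575 higher DEGs were called with a mean of at least 5 FPKM, 544 with median-ratio scaling and 537 with quantile normalization, against 893, and 92 higher and 38 lower with the treat test and 2154 and 744 with no fold threshold. The share of higher DEGs was 50.7% with both scalings, against 67.9%. Leaving out 1 library gave 697 to 909 higher and 287 to 438 lower DEGs. In the libraries labelled *nf-ya1*, 1303 lower DEGs were called with a mean of at least 5 FPKM, 362 higher and 670 lower with the treat test and 2832 and 4302 with no fold threshold, and leaving out 1 library gave 1367 to 1659 and 2290 to 2812. Quantile normalization gave 48.7% higher there, against 37.3%. For the difference between the lines, 976 larger values were called with a mean of at least 5 FPKM, 1289 with median-ratio scaling and 1092 with quantile normalization, 232 larger and 50 smaller with the treat test and 1085 smaller at an adjusted p of 0.05, and leaving out 1 library gave 1552 to 2472 and 495 to 811. The larger share was 59.5% with median-ratio scaling and 50.5% with quantile normalization, against 75.4%. The causes were not tested.

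Replicate numbers were not used to pair the samples. The deviations of same-numbered R2h and 0 h libraries correlated at −0.108, 0.005 and −0.104, and those of differently numbered ones at −0.136 to 0.197. The highest was that of R2h replicate 1 with 0 h replicate 3. With 3 libraries per group these values cannot show whether samples shared a batch. A replicate block gave 867 higher and 406 lower DEGs in W22. For the libraries labelled *nf-ya1* the block gave 1538 higher and 2553 lower DEGs, and for the difference 2036 larger and 670 smaller values.

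Of the 71 named DEGs, 30 stayed DEGs under every alternative, and none of them changed direction. Of the 17 named genes not called, 13 stayed so under every alternative. Depth per gene was unknown, so genes under 1 FPKM are the least certain.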
